A study of Mus musculus with 12 samples.

Results

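Plac8, Il17rb and Izumo1r are 3 genes that the study used to describe iNKT2 cells and the early stages of invariant natural killer T (iNKT) cell development. Their chromatin accessibility was read from every region of the deposited table that overlaps the gene body or the 10 kb on either side of it, which gave 21 of the 63309 regions. Of these, 4 belong to Plac8, 8 to Il17rb and 9 to Izumo1r. Thymic iNKT1, iNKT2 and iNKT17 cells were profiled by ATAC-seq from untreated C57BL/6 mice, the wild type, and from untreated Hivep3-/- mice backcrossed to C57BL/6, all 8 to 9 weeks old. There were 2 libraries a group and 12 libraries in all. The C57BL/6 mice were bought from a supplier and the Hivep3-/- line was a gift of another laboratory, and littermate controls are not mentioned in the methods. Cells were taken from pooled thymi by surface staining: iNKT1 cells were CD122+ and lacked ICOS, iNKT2 cells had ICOS and Izumo1r without CD122 or CD138, and iNKT17 cells had ICOS and CD138 without CD122 or Izumo1r. The subsets were transposed together and separated again by ICOS and CD138. Izumo1r protein was therefore a criterion of the first gate, and the iNKT2 against iNKT17 difference at its gene is at a gene used for sorting. The titles number single mice while the protocol describes pools, so the p-values given here measure the spread between these libraries, which may be technical.

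Invariant NKT cells are thymus-derived T cells whose nearly fixed T cell receptor recognises lipids presented by CD1d. iNKT1 cells rely on T-bet and make interferon gamma, iNKT2 cells make interleukin 4 and interleukin 13, and iNKT17 cells rely on RORγt and make interleukin 17. Il17rb encodes a subunit that pairs with IL-17RA to form the receptor for interleukin 25, a cytokine of type 2 immunity. Izumo1r encodes folate receptor 4, also called Juno, the egg receptor for the sperm protein Izumo1, which is also found on regulatory T cells and on iNKT2 cells. Plac8 encodes a small cysteine-rich protein first described in placenta. HIVEP3 is a large zinc finger protein of a family that binds κB-like DNA elements. A transposase inserts sequencing adapters where DNA is not covered by nucleosomes, and the insertions in a region measure how open it is.

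The sequences below come from the regions that the results turn on, outside any annotated exon, and are shown on the minus strand, which all 3 genes use (mm10, GRCm38.p6). Capitals mark matches, on either strand, to short consensus sequences of factors active in T cells: TCACACC for T-box factors, AACCACA for Runt, AGGAAGT for ETS, TCAAAG for TCF, TTTTCCA for NFAT, GTGGGNG for Egr, AGGTCA for ROR, TGANTCA for bZIP and AGATAA for the GATA family. For NF-κB the letters were GGG followed, after any 2 bases, by TTTCC. Matches to different consensus sequences may overlap. The first 2 are the part of the Plac8 start region before the transcript (chr5:100572246-100572483) and the middle of the region further upstream (chr5:100573288-100573587).
Plac8 start: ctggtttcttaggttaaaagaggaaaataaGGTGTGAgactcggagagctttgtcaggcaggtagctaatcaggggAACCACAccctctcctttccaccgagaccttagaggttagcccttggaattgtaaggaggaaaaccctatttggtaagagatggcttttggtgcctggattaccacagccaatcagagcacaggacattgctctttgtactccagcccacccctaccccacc
Plac8 upstream: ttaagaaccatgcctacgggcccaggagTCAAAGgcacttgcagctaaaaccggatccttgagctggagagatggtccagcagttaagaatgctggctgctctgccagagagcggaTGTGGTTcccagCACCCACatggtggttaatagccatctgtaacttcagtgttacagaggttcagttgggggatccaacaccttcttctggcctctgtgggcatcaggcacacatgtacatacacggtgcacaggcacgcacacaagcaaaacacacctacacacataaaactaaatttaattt
The next 2 are the middle of the regions farthest upstream of Il17rb, in introns of the neighbouring gene Chdh (chr14:30015756-30016055 and chr14:30017842-30018141).
Il17rb upstream: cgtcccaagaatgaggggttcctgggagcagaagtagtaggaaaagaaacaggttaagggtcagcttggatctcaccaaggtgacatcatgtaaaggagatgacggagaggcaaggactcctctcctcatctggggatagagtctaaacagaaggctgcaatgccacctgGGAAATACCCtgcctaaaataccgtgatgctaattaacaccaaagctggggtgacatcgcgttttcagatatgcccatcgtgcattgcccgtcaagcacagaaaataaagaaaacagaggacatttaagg
Il17rb far upstream: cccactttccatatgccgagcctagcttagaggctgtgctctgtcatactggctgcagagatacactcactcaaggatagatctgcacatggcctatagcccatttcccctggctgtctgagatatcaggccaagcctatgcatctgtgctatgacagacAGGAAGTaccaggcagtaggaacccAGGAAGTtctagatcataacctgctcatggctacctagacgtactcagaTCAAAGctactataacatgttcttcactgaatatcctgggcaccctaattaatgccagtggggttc
The last 2 precede Izumo1r, the bases before its start (chr9:14903950-14904199) and the middle of the next region upstream (chr9:14904698-14904997).
Izumo1r start: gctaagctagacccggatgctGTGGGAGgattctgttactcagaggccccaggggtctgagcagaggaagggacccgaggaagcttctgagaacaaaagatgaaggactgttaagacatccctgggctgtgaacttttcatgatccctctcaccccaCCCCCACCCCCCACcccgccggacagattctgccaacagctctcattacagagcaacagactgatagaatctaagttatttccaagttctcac
Izumo1r upstream: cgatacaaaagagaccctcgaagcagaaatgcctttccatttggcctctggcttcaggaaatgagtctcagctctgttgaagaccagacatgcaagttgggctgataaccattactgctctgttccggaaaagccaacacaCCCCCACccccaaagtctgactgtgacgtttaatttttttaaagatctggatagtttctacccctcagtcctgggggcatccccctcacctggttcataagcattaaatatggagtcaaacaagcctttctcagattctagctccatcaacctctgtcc

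The Plac8 start sequence holds 1 T-box and 1 Runt match, and the Plac8 upstream sequence holds a further Runt match. The region of that upstream sequence is 67.8% repeat-masked, and whether its matches lie in masked bases was not tested. Over the whole 500 bp of each region, the T-box letters occur in 8.57% of all 63309 regions and in 1 of the 4 Plac8, 1 of the 8 Il17rb and 0 of the 9 Izumo1r regions. The Runt letters occur in 17.4% of all regions and in 2 Plac8, 2 Il17rb and 1 Izumo1r region. Both ETS matches of the far upstream Il17rb sequence use letters found in 21.3% of all regions. The NF-κB letters, found in 3.78% of all regions, occur in 1 region of each gene, including the Plac8 start region and the Il17rb upstream sequence. The ROR letters occur in 27.7% of all regions, in 6 of the 8 Il17rb regions and in 0 of the 4 Plac8 regions. The Egr letters are common, in 43.6% of all regions, and occur 3 times in the Izumo1r start sequence. The remaining letters occur in 30.5% (TCF), 10.1% (NFAT), 15.9% (bZIP) and 20.6% (GATA) of all regions and in 6, 1, 2 and 5 of the 21. A match is a description of the letters and not a binding site.

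Values are log2 insertions per kilobase, normalized by the authors, and a linear mean of 5 insertions per kilobase in a group is the level above which a region is called accessible. Sums are nearly equal between libraries after that normalization, so depth cannot be read from them. As a stand-in, the different values in the lower ranks of each library were counted. Deeper libraries were assumed to hold more of them, which could not be checked here as no depth is given. The count ran from 73 to 491 and was lowest in the Hivep3-/- iNKT17 libraries. The 21 regions never lay at a library's lowest value. Start regions of 5 of 5 iNKT1 markers were highest in iNKT1 cells in both genotypes, those of 5 of 6 iNKT2 markers in C57BL/6 and 4 of 6 in Hivep3-/- were highest in iNKT2 cells, and those of 4 of 4 measured iNKT17 markers were highest in iNKT17 cells. Among these, Il2rb, Icos and Sdc1 encode proteins used for sorting. The C57BL/6 exception was Icos, with linear means of 47.3 in iNKT1 and 45.6 in iNKT2 cells. In C57BL/6 the lead of iNKT2 over iNKT17 cells was small at Gata3 (37.6 against 36.7) and Zbtb16 (123.2 against 117.8). At Il4, Il6ra and Cd4 it was larger. No region lay at the start of the markers of CD4+CD8+ thymocytes or B cells, and 1 of 3 myeloid markers, Cd68, had one. Hivep3 itself held 21 regions, of which 0 were called between genotypes in any subset by limma (5, 3 and 5 at an unadjusted p under 0.05 in iNKT1, iNKT2 and iNKT17 cells), and as the deleted part is not known here this checks nothing. In bulk libraries such as these, fewer cells with an open region and a less open region in each cell cannot be told apart.

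Plac8 accessibility was lower in Hivep3-/- iNKT2 cells than in C57BL/6 iNKT2 cells at each of its 4 regions. The start region and the region 1.19 kb upstream fell beyond the threshold, by 3.96-fold and 3.38-fold. Neither region was called between genotypes in iNKT1 cells. A region was called where limma gave a Benjamini-Hochberg adjusted p under 0.1 over all tested regions and the difference was at least 3-fold, and it was tested where at least 1 compared group was accessible.

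**Figure D1:**
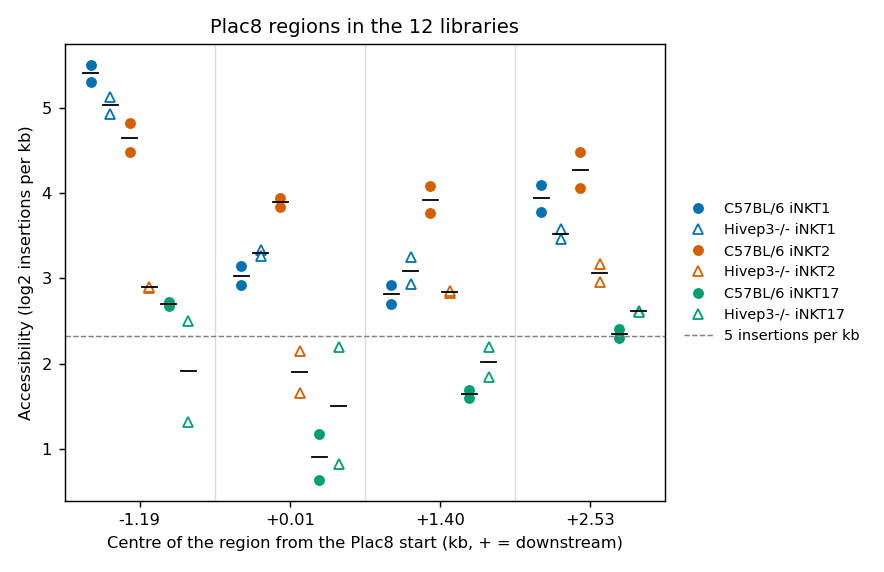
Accessibility of the 4 Plac8 regions in each of the 12 libraries, in log2 insertions per kb, ordered by the distance of the region's centre from the Plac8 start. Points are libraries (filled circles C57BL/6, open triangles Hivep3-/-, coloured by subset), black lines are group means, and the dashed line is 5 insertions per kb. The Hivep3-/- iNKT2 triangles lie below the C57BL/6 iNKT2 circles at every region.

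The Plac8 start region (chr5:100571984-100572483) covers the annotated start with the first exon and its UTR. It read 3.95 and 3.84 in C57BL/6 iNKT2 cells against 1.66 and 2.15 in Hivep3-/- iNKT2 cells. In iNKT1 cells it read 3.14 and 2.92 in C57BL/6 and 3.34 and 3.26 in Hivep3-/-. In iNKT17 cells it read 1.18 and 0.64 in C57BL/6 and 2.20 and 0.82 in Hivep3-/-, with 1 Hivep3-/- library well above the other. Both C57BL/6 iNKT2 libraries were therefore above every other library, while both Hivep3-/- iNKT2 libraries were below all 4 iNKT1 libraries and within the range of the iNKT17 libraries. The genotype difference in iNKT2 cells was -1.99 on the log2 scale (SE 0.38, adjusted p = 0.0054). In iNKT1 cells it was 0.27 (SE 0.38, adjusted p = 0.837, 95% interval -0.56 to 1.09), and in iNKT17 cells the region was under the accessible level and was not tested.

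The region 1.19 kb upstream (chr5:100573188-100573687, intergenic) read 4.83 and 4.48 in iNKT2 cells of C57BL/6 and 2.89 and 2.90 in those of Hivep3-/- mice. In iNKT1 cells it read 5.51 and 5.31 in C57BL/6 and 5.14 and 4.93 in Hivep3-/-, and in iNKT17 cells 2.72 and 2.67 in C57BL/6 and 1.32 and 2.50 in Hivep3-/-. It was the most open Plac8 region in all groups but Hivep3-/- iNKT2 and Hivep3-/- iNKT17 cells, and it was highest in iNKT1 cells in both genotypes. Its genotype difference in iNKT2 cells was -1.76 (SE 0.29, adjusted p = 0.0024), and in iNKT1 cells -0.37 (SE 0.29, adjusted p = 0.607). Repeat-masked bases made up 67.8% of this region, against a median of 10.0% over all regions, and 2.9% of all regions were masked over more than 50% of their length. How the repeat bears on the placement of reads was not tested.

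The 2 intronic regions passed the adjusted p without reaching 3-fold. At 1.40 kb downstream of the start (chr5:100570595-100571094) the values were 4.08 and 3.77 in C57BL/6 iNKT2 cells and 2.83 and 2.85 in Hivep3-/- iNKT2 cells, a difference of -1.09 (SE 0.24, adjusted p = 0.0113). At 2.53 kb downstream (chr5:100569468-100569967) they were 4.49 and 4.06 against 3.17 and 2.95, a difference of -1.21 (SE 0.21, adjusted p = 0.0029). The genotypes did not overlap at either region in iNKT2 cells. They also did not overlap at any of the 4 Plac8 regions in iNKT1 cells, where 0 were called. With 2 libraries a group, lack of overlap is weak evidence, and its share over all regions was not counted. Summed over the 4 regions on the linear scale, Plac8 accessibility was 75.1 ± 11.5 insertions per kb (SD, n = 2) in C57BL/6 iNKT2 cells and 26.8 ± 0.15 in Hivep3-/- iNKT2 cells.

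Across the 3 loci, 2 of 19 tested regions were called between genotypes in iNKT2 cells, both Plac8 regions and both lower, against 1.68% of all tested regions (0.474% higher and 1.20% lower). The median difference was -1.49 over the 4 Plac8 regions, 0.06 over the 8 Il17rb regions and -0.20 over the 7 tested Izumo1r regions, beside -0.0011 over all tested regions. Without replicate 1 of C57BL/6 iNKT2 the count was 1, as the region 1.19 kb upstream no longer reached the threshold. The fall of the Plac8 start region in iNKT2 cells differed from its change in iNKT1 cells by -2.25 (SE 0.54, adjusted p = 0.026) and from its change in iNKT17 cells by -2.59 (SE 0.54, adjusted p = 0.0356). For the former comparison 3 of 21 tested regions of the 3 loci were called, against 3.06% of all regions (1.00% higher and 2.06% lower), and for the latter 1 of 20, against 1.02% (0.338% higher and 0.685% lower). The call against iNKT17 cells was lost without any one of C57BL/6 iNKT2 replicate 1, C57BL/6 iNKT2 replicate 2, Hivep3-/- iNKT2 replicate 1 or C57BL/6 iNKT17 replicate 2.

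Markers of iNKT1 cells moved in the same libraries. Their 5 start regions summed to 283.8 and 272.9 insertions per kb in the C57BL/6 iNKT2 libraries and to 214.5 and 236.3 in the Hivep3-/- iNKT2 libraries, against 622.1 to 637.6 in the 4 iNKT1 libraries. All 5 were fitted lower in Hivep3-/- iNKT2 cells and 2 were called, Ifng, which encodes interferon gamma, by -2.08 (SE 0.24, adjusted p = 0.000285), and Nkg7, a cytotoxic granule gene, by -2.29 (SE 0.25, adjusted p = 0.000197). Xcl1, which encodes a chemokine, passed the adjusted p without reaching 3-fold, with a difference of -1.02 (SE 0.28, adjusted p = 0.0329). For Tbx21, which encodes T-bet, the difference was -0.29 (SE 0.18, adjusted p = 0.357), and for Il2rb, which encodes CD122, -0.066 (SE 0.064, adjusted p = 0.576). Il2rb made up most of the iNKT2 sums, with linear means of 196.9 in C57BL/6 and 188.4 in Hivep3-/- iNKT2 cells. Ifng, Nkg7, Xcl1 and Tbx21 had linear means of 28.2, 13.5, 16.0 and 23.9 in C57BL/6 iNKT2 cells. In Hivep3-/- iNKT2 cells these were 6.64, 2.75, 8.09 and 19.5. The 6 iNKT2 markers were also all fitted lower in Hivep3-/- iNKT2 cells, and 0 were called by limma. Their start regions summed to 352.6 and 340.2 in the C57BL/6 and 311.7 and 286.7 in the Hivep3-/- iNKT2 libraries. Of these, Il4 passed the adjusted p under 3-fold, at -0.81 (SE 0.28, adjusted p = 0.0826). The 2 Hivep3-/- iNKT2 libraries also had fewer different low values, 91 and 118 against 219 and 159. The part of any of these in the Plac8 result was not tested. In C57BL/6, both iNKT2 libraries were above both iNKT1 libraries at the start region and 1.40 kb downstream, both were below them 1.19 kb upstream, and the subsets overlapped 2.53 kb downstream.

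**Figure D2:**
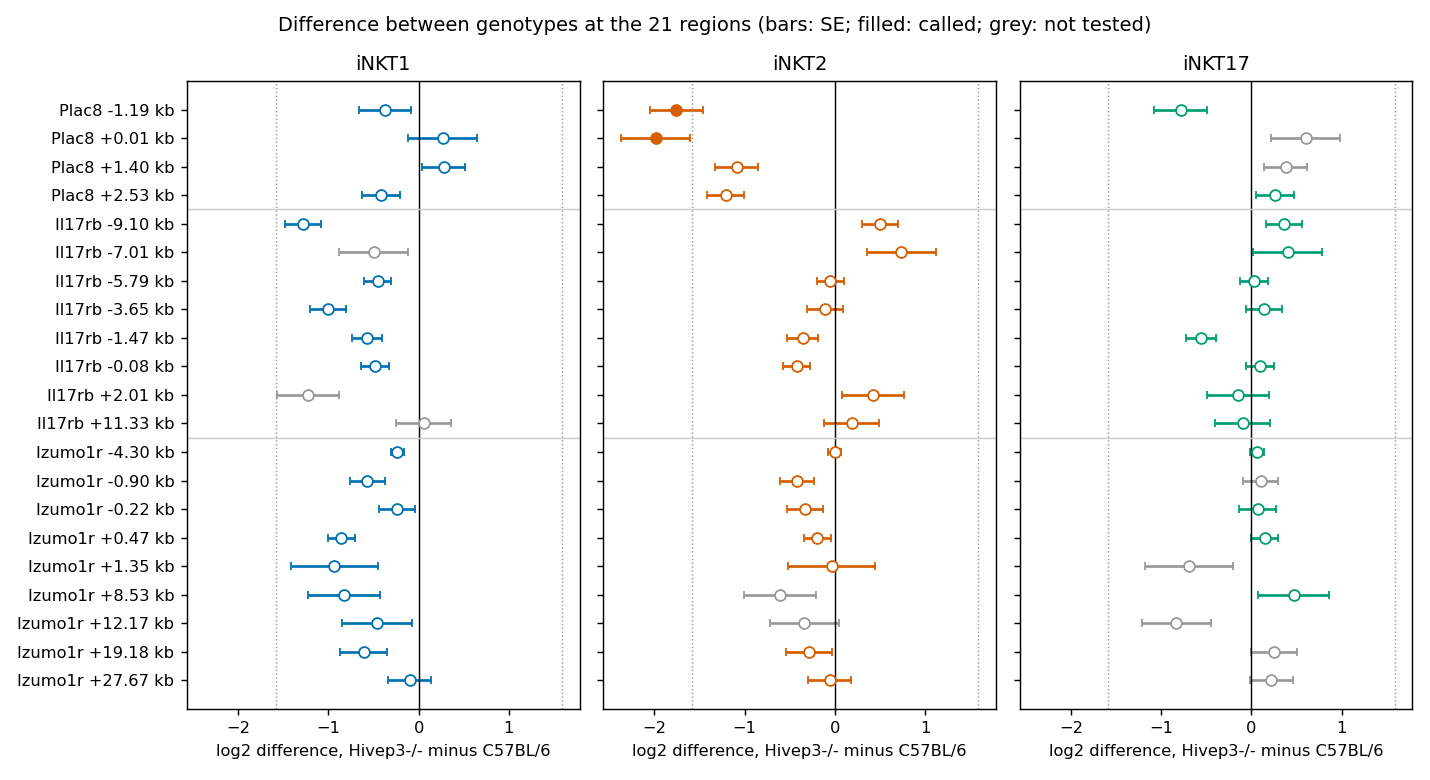
Genotype difference at the 21 regions in iNKT1, iNKT2 and iNKT17 cells, as the limma log2 difference (Hivep3-/- minus C57BL/6) with its SE, with regions ordered by gene and distance from the start. Filled points are called, grey points were not tested, and dotted lines mark 3-fold. The only filled points are the Plac8 start and the region 1.19 kb upstream in iNKT2 cells.

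Il17rb shares its surroundings with 2 genes read in the opposite direction. The Chdh start lies 127 bp from the Il17rb start, and Actr8 overlaps most of the gene from its other end. Insertions carry no strand, so the 5 regions upstream of Il17rb, which are Chdh introns, cannot be assigned to either gene. The same holds for the region 11.33 kb downstream, which lies in introns of both Actr8 and Il17rb. In the 7 regions other than the shared start, accessibility in both genotypes was lower in iNKT1 cells than in iNKT2 cells, while at the shared start the subsets were within a narrow range. Between iNKT2 and iNKT17 cells 0 of 8 were called by limma in C57BL/6 and 0 of 8 in Hivep3-/-, against 16.2% and 15.6% of all regions. An adjusted p under 0.1 was reached by 4 and 6 of them. At 11.33 kb downstream (chr14:29997312-29997811) C57BL/6 iNKT2 cells were lower than iNKT17 cells by -1.22 (SE 0.30, adjusted p = 0.00462), under 3-fold.

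**Figure D3:**
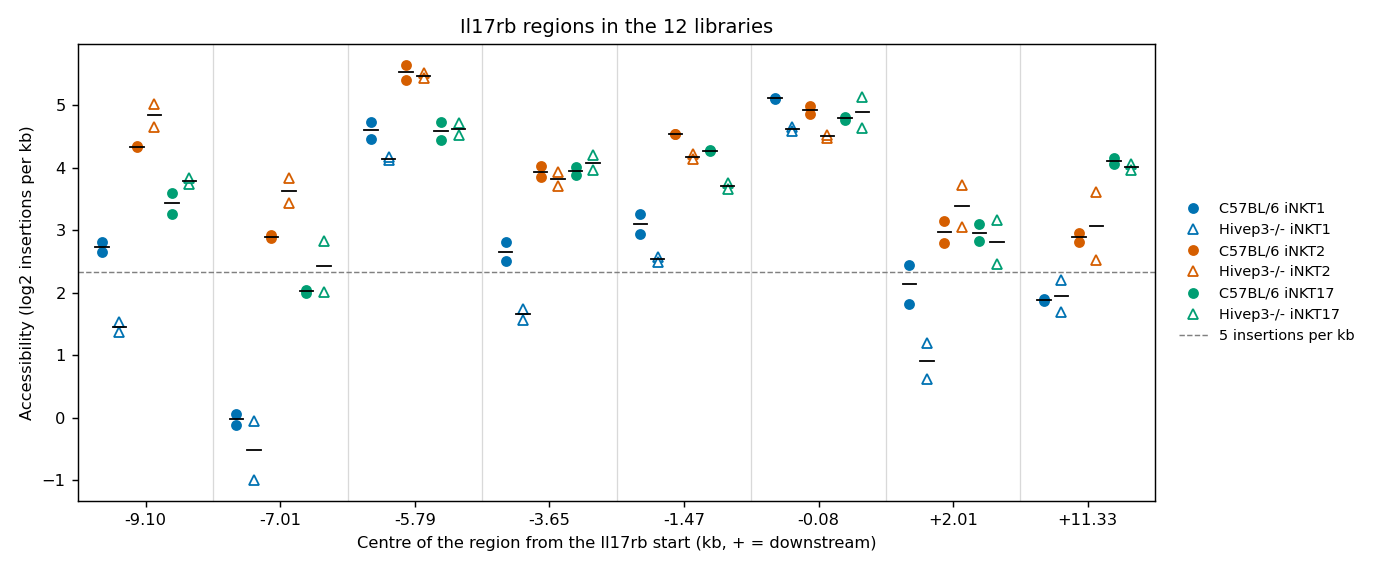
Accessibility of the 8 Il17rb regions in each of the 12 libraries, in log2 insertions per kb, ordered by the distance of the region's centre from the Il17rb start (filled circles C57BL/6, open triangles Hivep3-/-, coloured by subset, black lines group means, dashed line 5 insertions per kb). At each region but the shared start, 0.08 kb upstream, the 4 iNKT1 points lie below the 4 iNKT2 points.

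At the shared start region (chr14:30008723-30009222) C57BL/6 libraries read 5.10 and 5.11 for iNKT1, 4.86 and 4.99 for iNKT2, and 4.76 and 4.81 for iNKT17 cells. Hivep3-/- libraries read 4.66 and 4.59 for iNKT1, 4.47 and 4.53 for iNKT2, and 5.13 and 4.64 for iNKT17 cells. All 12 libraries thus lay close together, with the genotypes apart in iNKT1 and iNKT2 cells and overlapping in iNKT17 cells. No comparison was called at this region. Its genotype difference was -0.48 (SE 0.15, adjusted p = 0.0858) in iNKT1 and -0.43 (SE 0.15, adjusted p = 0.0938) in iNKT2 cells, so both passed the adjusted p and neither neared 3-fold.

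The region 7.01 kb upstream of the start (chr14:30015656-30016155) separated iNKT2 from iNKT1 cells most among the Il17rb regions. iNKT2 libraries read 2.87 and 2.91 in C57BL/6 and 3.83 and 3.43 in Hivep3-/- mice. iNKT1 libraries read -0.11 and 0.06 in C57BL/6 and -0.996 and -0.045 in Hivep3-/- mice. iNKT17 libraries read 2.00 and 2.05 in C57BL/6 and 2.01 and 2.83 in Hivep3-/- mice. All 4 iNKT2 libraries were above all others, and all 4 iNKT1 libraries were below one insertion per kb or close to it. iNKT2 cells were higher than iNKT1 cells by 2.92 in C57BL/6 (SE 0.38, adjusted p = 3.4e-05) and by 4.15 in Hivep3-/- (SE 0.38, adjusted p = 1.28e-06). The difference from iNKT17 cells in C57BL/6 was 0.87 (SE 0.38, adjusted p = 0.0798), under 3-fold.

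At 9.10 kb upstream (chr14:30017742-30018241), the region of the far upstream sequence with its pair of ETS matches, the values were 2.65 and 2.82 in C57BL/6 iNKT1 and 1.37 and 1.54 in Hivep3-/- iNKT1 cells. In iNKT2 cells they were 4.32 and 4.34 in C57BL/6 and 5.02 and 4.64 in Hivep3-/-. In iNKT17 cells they were 3.59 and 3.26 in C57BL/6 and 3.74 and 3.84 in Hivep3-/-. Hivep3-/- cells were lower in iNKT1 cells, and their fitted rises in the other 2 subsets did not pass the adjusted p. In iNKT1 cells the difference was -1.28 (SE 0.20, adjusted p = 0.0020), under 3-fold. It was 0.50 (SE 0.20, adjusted p = 0.132) for iNKT2 and 0.36 (SE 0.20, adjusted p = 0.419) for iNKT17 cells. The change differed between iNKT2 and iNKT1 cells by 1.78 (SE 0.28, adjusted p = 0.00341) and between iNKT1 and iNKT17 cells by -1.64 (SE 0.28, adjusted p = 0.0113). The latter was the 1 called region of 21 tested, against 1.42% of all regions (1.05% higher and 0.372% lower), and it was lost without any one of C57BL/6 iNKT1 replicate 2, Hivep3-/- iNKT1 replicate 1 or C57BL/6 iNKT17 replicate 2.

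The region 2.01 kb downstream, in the coding part of an Il17rb exon (chr14:30006635-30007134), also changed differently. For iNKT1 cells it read 2.45 and 1.82 in C57BL/6 and 1.20 and 0.63 in Hivep3-/-, and for iNKT2 cells 3.14 and 2.79 in C57BL/6 and 3.72 and 3.05 in Hivep3-/-. The genotypes overlapped in iNKT2 cells and did not in iNKT1 cells, where they did not overlap at 18 of the 21 regions. The genotype change in iNKT2 cells exceeded that in iNKT1 cells by 1.64 (SE 0.49, adjusted p = 0.0644), although both iNKT1 groups were under the accessible level and the iNKT1 difference itself was not tested. That call was lost without any one of 5 libraries of the 8 compared.

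In iNKT1 cells 0 of 18 tested regions of the 3 loci were called between genotypes by limma, against 1.15% of all tested regions (0.890% higher and 0.264% lower), while 9 had an unadjusted p under 0.05 and 6 an adjusted p under 0.1, beside 17.8% and 9.42% of all tested regions. All 6 were lower in Hivep3-/- cells: 4 in Il17rb and 2 in Izumo1r. The Il17rb regions were the start, and those 1.47, 3.65 and 9.10 kb upstream, with differences of -0.48, -0.57, -1.004 and -1.28. Start regions of the 6 iNKT2 markers summed to 280.0 and 274.5 insertions per kb in the C57BL/6 iNKT1 libraries and 198.2 and 214.1 in the Hivep3-/- iNKT1 libraries, and all 6 were fitted lower. One of these was called, Cd4, which encodes the CD4 co-receptor, by -1.91 (SE 0.35, adjusted p = 0.00559). The Hivep3-/- iNKT1 libraries had more different low values, 227 and 491 against 139 and 170. The part of either in these differences was not tested. In iNKT17 cells 0 of 14 tested regions were called by limma, against 0.271% of all (0.133% higher and 0.138% lower), with 2 at an unadjusted p under 0.05.

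Izumo1r was open in iNKT1 and iNKT2 cells and much less so in iNKT17 cells, in both genotypes. Its 9 regions lie around the start, from 4.30 kb upstream to 1.35 kb downstream, and inside and beyond the gene, from 8.53 to 27.67 kb downstream. Those called higher in iNKT2 than in iNKT17 cells were the same in both genotypes, 4 around the start and the one 19.18 kb downstream, beside 7.72% of all regions called higher in C57BL/6 and 7.33% in Hivep3-/-. In C57BL/6, 5 regions were fitted lower in iNKT2 than in iNKT1 cells, the 4 farther downstream and the one 4.30 kb upstream, and 2 of the former were called, beside 7.33% of all regions called lower.

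**Figure D4:**
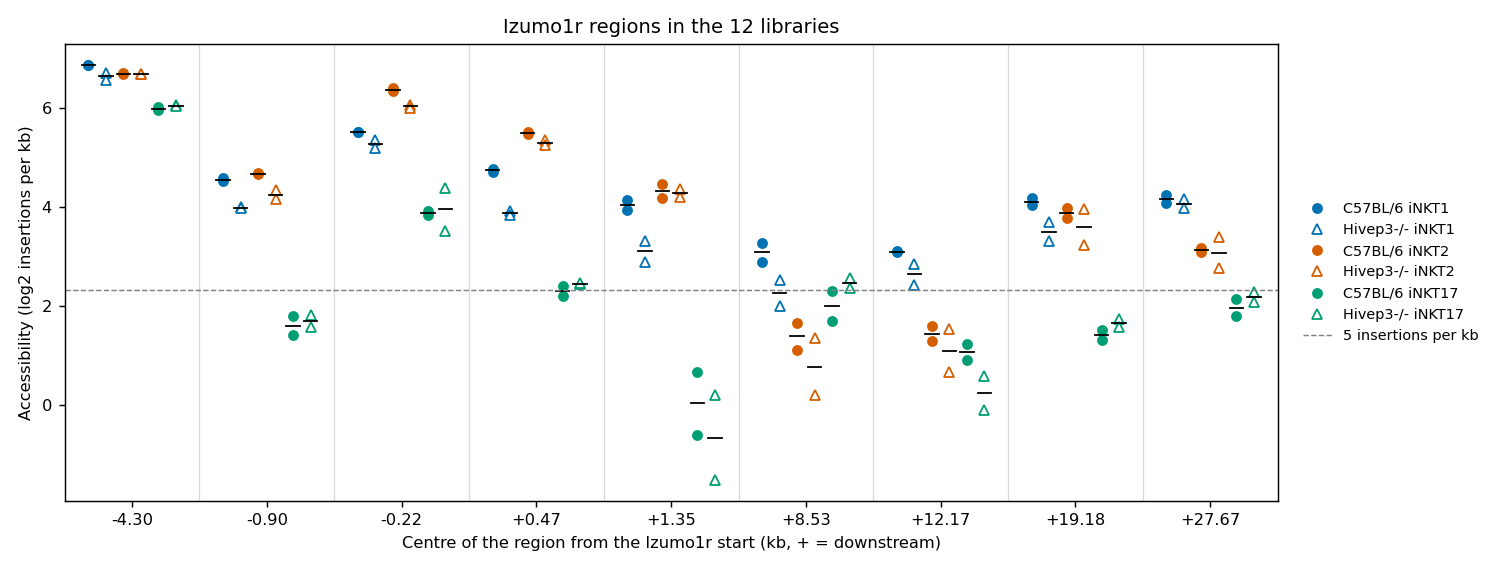
Accessibility of the 9 Izumo1r regions in each of the 12 libraries, in log2 insertions per kb, ordered by the distance of the region's centre from the Izumo1r start (filled circles C57BL/6, open triangles Hivep3-/-, coloured by subset, black lines group means, dashed line 5 insertions per kb). From 0.90 kb upstream to 1.35 kb downstream every iNKT17 point lies below every iNKT1 and iNKT2 point.

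The Izumo1r start region (chr9:14903922-14904421) read 6.33 and 6.39 for iNKT2 cells of C57BL/6 and 6.07 and 5.99 for those of Hivep3-/- mice. In iNKT1 cells it read 5.51 and 5.51 in C57BL/6 and 5.35 and 5.19 in Hivep3-/-, and in iNKT17 cells 3.84 and 3.91 in C57BL/6 and 4.38 and 3.51 in Hivep3-/-. The order iNKT2, iNKT1, iNKT17 held in both genotypes without overlap between subsets. iNKT2 cells were higher than iNKT17 cells by 2.49 in C57BL/6 (SE 0.20, adjusted p = 5.47e-07) and by 2.08 in Hivep3-/- (SE 0.20, adjusted p = 2.68e-06). They were higher than iNKT1 cells by 0.85 in C57BL/6 (SE 0.20, adjusted p = 0.00312), under 3-fold. The genotype difference in iNKT2 cells was -0.33 (SE 0.20, adjusted p = 0.334, 95% interval -0.77 to 0.10).

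The largest subset difference of the locus was in the exon 1.35 kb downstream (chr9:14902349-14902848), where coding sequence and UTR are annotated. It read 4.46 and 4.17 in C57BL/6 iNKT2, 3.93 and 4.13 in C57BL/6 iNKT1, and 0.66 and -0.61 in C57BL/6 iNKT17 cells. In Hivep3-/- mice it read 4.20 and 4.35 in iNKT2, 3.31 and 2.88 in iNKT1, and -1.52 and 0.19 in iNKT17 cells. The iNKT17 libraries were far below the rest and far from each other. iNKT2 cells were higher than iNKT17 cells by 4.29 in C57BL/6 (SE 0.48, adjusted p = 8.84e-06) and by 4.94 in Hivep3-/- (SE 0.48, adjusted p = 2.93e-06).

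In the exonic UTR 0.47 kb downstream (chr9:14903234-14903733) the iNKT2 libraries read 5.48 and 5.51 in C57BL/6 and 5.34 and 5.25 in Hivep3-/-. The iNKT1 libraries read 4.71 and 4.76 in C57BL/6 and 3.92 and 3.83 in Hivep3-/-. The iNKT17 libraries read 2.41 and 2.20 in C57BL/6 and 2.44 and 2.45 in Hivep3-/-. Here Hivep3-/- iNKT1 cells were lower than C57BL/6 iNKT1 cells by -0.86 (SE 0.15, adjusted p = 0.00427), which was the smallest adjusted p of the locus between genotypes and did not reach 3-fold. The iNKT2 difference was -0.20 (SE 0.15, adjusted p = 0.454). The change in iNKT1 cells differed from that in iNKT17 cells by -1.004 (SE 0.21, adjusted p = 0.0317) and that in iNKT2 cells exceeded that in iNKT1 cells by 0.66 (SE 0.21, adjusted p = 0.086), both under 3-fold.

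The region 0.90 kb upstream (chr9:14904598-14905097, intergenic) read 4.68 and 4.66 in C57BL/6 iNKT2, 4.58 and 4.51 in C57BL/6 iNKT1, and 1.40 and 1.79 in C57BL/6 iNKT17 cells. The corresponding Hivep3-/- libraries read 4.15 and 4.34, 3.997 and 3.97, and 1.82 and 1.57. iNKT1 and iNKT2 cells lay close together and far above iNKT17 cells, with a C57BL/6 difference between iNKT2 and iNKT17 cells of 3.07 (SE 0.19, adjusted p = 6.7e-08). By contrast the region 4.30 kb upstream (chr9:14907998-14908497), the most open of the 21, was called in no comparison. Its values ran from 5.95 in a C57BL/6 iNKT17 library to 6.87 in a C57BL/6 iNKT1 library.

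In the introns 8.53 and 12.17 kb downstream (chr9:14895171-14895670 and chr9:14891526-14892025) iNKT1 cells were above iNKT2 cells. The region at 8.53 kb read 3.28 and 2.89 in C57BL/6 iNKT1, 1.65 and 1.11 in iNKT2, and 2.29 and 1.69 in iNKT17 cells. That at 12.17 kb read 3.11 and 3.08, 1.58 and 1.29, and 1.23 and 0.91. C57BL/6 iNKT2 cells, under the accessible level at both, were lower than iNKT1 cells by -1.70 (SE 0.40, adjusted p = 0.00293) and -1.66 (SE 0.38, adjusted p = 0.00269). These calls were lost in 4 and 3 of 12 alternatives. In Hivep3-/- cells the difference was -1.54 (SE 0.38, adjusted p = 0.00396) at 12.17 kb, which at 2.91-fold missed the threshold, and -1.49 (SE 0.40) at 8.53 kb, where neither group was accessible and no test was made. At 8.53 kb Hivep3-/- iNKT2 cells, at 0.20 and 1.34, were lower than Hivep3-/- iNKT17 cells, at 2.35 and 2.56, by -1.69 (SE 0.40, adjusted p = 0.00328). That call was lost in 5 of 12 alternatives. Beyond the end of the gene, the region 19.18 kb downstream (chr9:14884520-14885019) was higher in C57BL/6 iNKT2 than in iNKT17 cells by 2.47 (SE 0.26, adjusted p = 4.46e-06) and the one at 27.67 kb (chr9:14876028-14876527) by 1.17 (SE 0.24, adjusted p = 0.00112), under 3-fold.

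The subsets differed as follows over the 3 loci, in comparisons that share libraries with one another. In C57BL/6, 4 of 21 regions were called between iNKT2 and iNKT1 cells, against 16.0% of all tested regions (8.71% higher and 7.33% lower). Of these, 2 Il17rb regions were higher and 2 Izumo1r regions lower in iNKT2 cells, and 0 of the 4 Plac8 regions were called. Between iNKT2 and iNKT17 cells 9 of 19 were called, against 16.2% of all (7.72% higher and 8.49% lower), and they were the 4 Plac8 regions and 5 Izumo1r regions, each higher in iNKT2 cells. Between iNKT1 and iNKT17 cells 11 of 20 were called, against 20.5% of all (9.72% higher and 10.8% lower), with 3 Plac8 and 7 Izumo1r regions higher and 1 Il17rb region lower in iNKT1 cells. Without C57BL/6 iNKT2 replicate 2, the first of these counts was 2.

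In Hivep3-/- mice, 6 of 20 regions were called between iNKT2 and iNKT1 cells, against 17.3% of all (8.54% higher and 8.77% lower). Of these, 5 Il17rb regions were higher in iNKT2 cells, by 1.64 to 4.15, and the Plac8 region 1.19 kb upstream was lower by -2.14 (SE 0.29, adjusted p = 3.75e-05). Between iNKT2 and iNKT17 cells 6 of 19 were called, against 15.6% of all (7.33% higher and 8.25% lower), with 5 Izumo1r regions higher and 1 lower in iNKT2 cells. Of the Plac8 regions 0 of 3 tested were called there by limma, with 2 at an unadjusted p under 0.05 and 3 at an adjusted p under 0.1. All 3 were fitted higher in iNKT2 cells, by 0.45 to 0.99 on the log2 scale. Between iNKT1 and iNKT17 cells 12 of 21 were called, against 19.3% of all (9.48% higher and 9.83% lower), with 2 Plac8 and 5 Izumo1r regions higher and 5 Il17rb regions lower in iNKT1 cells.

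**Figure D5:**
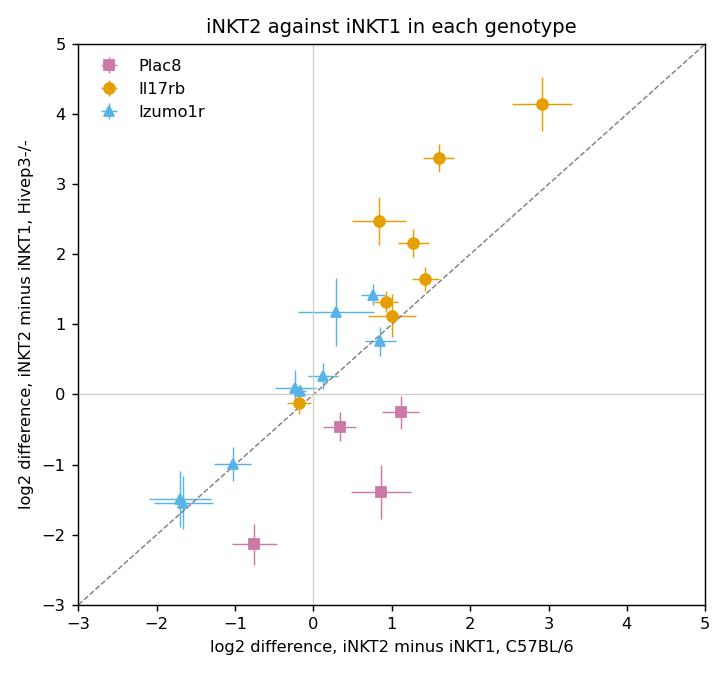
The limma log2 difference between iNKT2 and iNKT1 cells at the 21 regions in C57BL/6 (horizontal) and Hivep3-/- (vertical) cells, with SE bars, coloured by gene. The dashed line marks equal differences. The 4 Plac8 squares lie below that line and the 8 Il17rb circles on or above it, of which the Plac8 start and the Il17rb regions 2.01 kb downstream and 9.10 kb upstream were called as differing.

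Summed over their regions, the genes differed in the order of the subsets. In C57BL/6, Plac8 had 75.1 ± 11.5 insertions per kb (SD, n = 2) in iNKT2, 73.2 ± 8.28 in iNKT1 and 16.6 ± 0.80 in iNKT17 cells, so that the first 2 did not differ beyond their spread. Il17rb had 158 ± 6.51 in iNKT2, 126 ± 5.07 in iNKT17 and 89.6 ± 5.87 in iNKT1 cells. Izumo1r had 305 ± 1.81 in iNKT2, 281 ± 0.04 in iNKT1 and 99.7 ± 4.25 in iNKT17 cells. In Hivep3-/- mice Plac8 was highest in iNKT1 cells, at 62.7 ± 5.62, followed by iNKT2 cells at 26.8 ± 0.15 and iNKT17 cells at 17.5 ± 0.44. Il17rb was at 160 ± 19.1, 127 ± 3.93 and 60.6 ± 1.83 in iNKT2, iNKT17 and iNKT1 cells, and Izumo1r at 271 ± 0.80, 106 ± 6.90 and 216 ± 18.3. These sums were not tested.

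As a description, the start regions of Plac8 and Izumo1r correlated with r = 0.77 over the 12 libraries, those of Plac8 and Il17rb with r = 0.32 and those of Il17rb and Izumo1r with r = 0.003, where the points share libraries and fall into 3 subsets. Among 12005 other genes with a start region, the 5 most like Plac8 were Clybl (r = 0.96), Fbxo22 (r = 0.95), Eri2 and Rexo5, which share 1 region (r = 0.94), and Slc37a4 (r = 0.93). The genes most like Izumo1r were Nckap1l (r = 0.98), Fndc11 (r = 0.98), 6330403K07Rik (r = 0.97), Tef (r = 0.97) and Nav2 (r = 0.96). For Il17rb the likeness was weaker, from Selenot (r = 0.82) to Sh2b1, Itgb3, Utp14a and Abcc3 (each r = 0.78). The 12 points of each correlation come from 6 groups, and r does not weigh the size of a change. Group means of the Clybl start region ran from 5.71 to 6.23, and those of the Plac8 start region from 0.91 to 3.89.

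The limit of 10 kb decided which regions were counted. The Plac8 region just outside it, 11.07 kb upstream (chr5:100583067-100583566), was at 5.79 and 5.99 for iNKT2 cells of C57BL/6 and 4.69 and 5.13 for those of Hivep3-/- mice, while the nearest one on the other side, 35.38 kb downstream in a Cops4 intron, was at 3.67 and 3.60 against 3.74 and 3.98. The Il17rb region just outside, 11.66 kb upstream in Chdh (chr14:30020306-30020805), of C57BL/6 mice was at 1.61 and 2.16 in iNKT1 and 4.11 and 3.74 in iNKT2 cells, next to the last one inside at 9.10 kb. On the other side of Il17rb, the Actr8 intron 28.27 kb downstream was at 3.23 and 3.16 in the former and 3.13 and 3.14 in the latter. Around Izumo1r, the region 16.86 kb upstream (chr9:14920559-14921058) was at 3.39 and 3.38 in C57BL/6 iNKT2 and 1.46 and 1.79 in C57BL/6 iNKT17 cells, and that 36.75 kb downstream in Gpr83 at 4.26 and 4.20 against 3.69 and 3.45.

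A list around the interleukin 25 receptor held 10 genes with 64 regions. It joined the ligand Il25, the partner chain Il17ra and the signalling genes Traf3ip2, Traf6, Traf2 and Traf5 with genes of type 2 immunity outside that receptor's pathway, the cytokines Tslp and Il33, the interleukin 33 receptor Il1rl1 and the transcription factor Gata3, so its counts are not those of the pathway alone. Between genotypes in iNKT2 cells, 1 of 55 tested regions was higher and 1 lower in Hivep3-/-, with a median of -0.03 beside -0.0011 over all regions, of which 0.474% were called higher and 1.20% lower. They were at Traf3ip2, which encodes the adaptor Act1, by 2.70 (SE 0.47, adjusted p = 0.00299), and at Traf6, a ubiquitin ligase, by -2.78 (SE 0.62, adjusted p = 0.0124). In iNKT1 and iNKT17 cells, 0 of 56 and 0 of 57 were called by limma, against 1.15% and 0.271% of all. Between C57BL/6 iNKT2 and iNKT1 cells 3 of 60 were higher and 8 lower, which is 18.3% called beside 16.0% of all regions. The lower ones included 2 regions of Il17ra, the partner of Il17rb, by -3.38 (SE 0.46, adjusted p = 4.48e-05) and -2.56 (SE 0.27, adjusted p = 4.71e-06). The 5 regions of Folr2, another folate receptor, and of Izumo1 were called in no genotype comparison. In C57BL/6, 1 of the 5, at Izumo1, was higher in iNKT1 than in iNKT17 cells by 1.62 (SE 0.40, adjusted p = 0.00372), where 20.5% of all regions were called.

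The other 23 iNKT2 and early-stage genes that the study names had 313 regions. In C57BL/6, 53 of 300 tested were higher and 6 lower in iNKT2 than in iNKT1 cells, with a median of 0.53 beside -0.0063 over all regions, of which 8.71% were called higher and 7.33% lower. Examples were Cd28, a costimulatory receptor, by 3.34 (SE 0.35, adjusted p = 5.69e-06), Il6ra, the interleukin 6 receptor, by 3.26 (SE 0.23, adjusted p = 2.57e-07), and the early activation marker Cd69, lower by -3.90 (SE 0.56, adjusted p = 7.66e-05). Against iNKT17 cells 44 of 302 were higher and 10 lower, beside 7.72% and 8.49% of all regions. Between genotypes in iNKT2 cells, 4 of 302 were higher and 6 lower, beside 0.474% and 1.20% of all regions. In iNKT1 cells 3 of 263 were higher and 10 lower, beside 0.890% and 0.264% of all, and in iNKT17 cells 0 of 266 were called by limma, beside 0.271% of all. Few of the 23 genes held these calls. In iNKT2 cells the higher regions lay at 2 genes (Ikzf2 and Il6ra) and the lower at 3 (Ccr9, Ikzf2 and Lef1). In iNKT1 cells the higher lay at 2 (Ikzf2 and Slamf6) and the lower at 4 (Ccr9, Cd4, Il4 and Zbtb16). The largest falls in iNKT2 cells were 3 regions of Ccr9, a chemokine receptor of thymocytes, by -2.96, -2.88 and -2.77 (SE 0.59, 0.43 and 0.51, adjusted p = 0.00711, 0.00128 and 0.00427). The largest change in iNKT1 cells was at a region of Ikzf2, higher by 3.10 (SE 0.52, adjusted p = 0.00317). It was followed by a region of Ccr9, by -2.78 (SE 0.51, adjusted p = 0.00577). Next was a region of Zbtb16, which encodes the iNKT cell transcription factor PLZF, by -2.23 (SE 0.29, adjusted p = 0.00056). Zbtb16 has 86 regions, and its start region differed by -0.47 (SE 0.10, adjusted p = 0.0151), under 3-fold.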

How the data were processed

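Chromatin accessibility was measured by Omni-ATAC-seq in 12 libraries. According to the study's methods and the submitters' processing notes, the authors trimmed reads with Trimmomatic 0.39, mapped them to mm10 with the ENCODE ATAC-seq pipeline, merged the peaks of all replicates into regions of 500 bp with chromVAR, counted transposase insertions and normalized with voom. The deposited values are log2 insertions per kb, and all 12 columns were used. Genes are from GENCODE vM21. The 3 genes, the lists and the tests were chosen with earlier results of these data known, and named regions are each gene's start region, regions called between genotypes and the 3 with the largest called iNKT2 difference in C57BL/6. Others were named as members.

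Group means of all 12 libraries were fitted in limma 3.58.1 (R 4.3.3) with empirical Bayes and a mean-variance trend (6 residual and 7.17 prior degrees of freedom). p was adjusted over the regions in which 1 of the compared groups averaged 5 or more on the linear scale, and a call needed an adjusted p under 0.1 and 3-fold. Tests, adjustments and interaction terms covered the whole table. Simulated data had 200 regions changed by 3 on the log2 scale in each subset. Of them 197, 197 and 196 were recovered in iNKT1, iNKT2 and iNKT17 cells among 63309 regions, with 4, 7 and 3 false calls. That change is larger than the 3-fold threshold and than the genotype differences called here. The recovery of changes of such smaller size was not measured. Within a genotype the titles give the 3 subsets the same mouse numbers, and the deviations of same-numbered libraries correlated with r = 0.12 to 0.17. The alternatives were no filter on accessibility or 1 over all libraries, pseudocounts of 1 and 5, renewed quantile normalization, 2-fold, only the compared libraries, no variance trend, the replicate block and leaving out each library. Sequences were read from GRCm38.p6 with Python 3.11.15 and pandas 2.3.3. Depth per library is not given in the table, which limits what can be said of low values.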

Additional observations from a re-analysis of the deposited data

Results flagged for a closer look

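The change between genotypes differed between subsets at 3 regions, in tests of the difference itself. At the Plac8 start region the change in iNKT2 cells was lower than that in iNKT1 cells by -2.25 on the log2 scale (SE 0.54, limma adjusted p = 0.026) and lower than that in iNKT17 cells by -2.59 (SE 0.54, adjusted p = 0.0356). At the Il17rb exon 2.01 kb downstream of the start the change in iNKT2 cells exceeded that in iNKT1 cells by 1.64 (SE 0.49, adjusted p = 0.0644). At the Chdh intron 9.10 kb upstream of Il17rb it did so by 1.78 (SE 0.28, adjusted p = 0.00341), and the change in iNKT1 cells was lower than that in iNKT17 cells by -1.64 (SE 0.28, adjusted p = 0.0113). The Plac8 difference against iNKT1 cells was called in 16 of 17 alternatives and lost with a pseudocount of 5, where it was -1.35 and under 3-fold. The difference at the Il17rb exon was called in 9 of its 17 alternatives.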

How the results depend on the processing

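Of the 55 calls made at members over the 12 comparisons, 0 changed direction under any alternative. All 55 were kept under no accessibility filter, the fit of only the compared libraries and the replicate block. Without the variance trend and with renewed quantile normalization 54 were kept. The 2-fold threshold keeps every 3-fold call by construction and tests nothing here. With a mean of 5 over all libraries 50 of the 55 were still tested, and all 50 were kept. Leaving out 1 library kept 215 of 239 rechecked calls and lost 24. A pseudocount of 1 kept 42 of 55 and a pseudocount of 5 kept 15, as an added constant shrinks folds of low values by construction.

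The number of called regions moved as follows. With a 2-fold threshold it was 2 in iNKT1 and 4 in iNKT2 cells between genotypes, 9 in C57BL/6 and 12 in Hivep3-/- between iNKT2 and iNKT1 cells, and 5, 3 and 3 for the changes of iNKT2 against iNKT1, iNKT2 against iNKT17 and iNKT1 against iNKT17. With a pseudocount of 5 it was 0 in iNKT2 cells between genotypes, 0, 4 and 4 in C57BL/6 and 3, 3 and 1 in Hivep3-/- for iNKT2 against iNKT1, iNKT2 against iNKT17 and iNKT1 against iNKT17, and 0, 0 and 0 for the changes. With a pseudocount of 1 it was 1 for C57BL/6 iNKT2 against iNKT1, 1 for the change of iNKT2 against iNKT1 and 0 for that of iNKT1 against iNKT17. With a mean of 5 over all libraries C57BL/6 iNKT2 against iNKT1 gave 2.

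Leaving out 1 library gave 0 to 0, 1 to 2 and 0 to 0 calls between genotypes in iNKT1, iNKT2 and iNKT17 cells. It gave 2 to 4, 9 to 9 and 10 to 11 in C57BL/6, 6 to 8, 5 to 6 and 10 to 12 in Hivep3-/-, and 2 to 3, 0 to 2 and 0 to 1 for the changes. The change of iNKT2 against iNKT17 was called at 0 regions without C57BL/6 iNKT2 replicate 1, Hivep3-/- iNKT2 replicate 1 or C57BL/6 iNKT17 replicate 2, and at 2 without Hivep3-/- iNKT17 replicate 2.

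Between genotypes same-numbered libraries share only a number, and their deviations correlated with r = 0.17, 0.15 and 0.11 in iNKT1, iNKT2 and iNKT17 cells. With the replicate block the iNKT2 genotype count stayed at 2, and the block changed no call at a member. With 2 libraries a group and no stated depth, differences at regions near or under 5 insertions per kb are the least certain, above all in the Hivep3-/- iNKT17 libraries.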
